A study of Mus musculus with 12 samples.

Results

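The 10 genes described here are 9 Toll-like receptor genes (Tlr1, Tlr2, Tlr3, Tlr4, Tlr6, Tlr7, Tlr8, Tlr9 and Tlr13) and Myd88, which encodes the adaptor that most of these receptors use. They were chosen by name from 22195 genes in the deposited tables, not by a rule on measured values, but with earlier results of these data known. Tlr5, Tlr11 and Tlr12 were not among them and are described with the pathway lists. All 10 chosen genes were among the 13478 genes with enough reads to be tested. The libraries came from tumours of YUMM 2.1, a mouse melanoma cell line grown under the skin of immunocompetent C57BL/6J mice. Treatment began at a tumour volume of 20 to 50 mm3, with an isotype control antibody, an antibody to B7-H3 (a checkpoint protein of the B7 family, encoded by Cd276), an antibody to PD1 (a checkpoint receptor of T cells, encoded by Pdcd1), or a combination of both antibodies. Each of the 4 groups has 3 libraries of ribosomal-RNA-depleted total RNA, selected for an RNA integrity number of at least 7.0 and at least 500 ng of RNA. The tumour cells of all 12 libraries came from 1 line, the doses and the day of collection are not used here, and no label ties a library to its own mouse, so p-values measure the spread between libraries, which may be technical.

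Toll-like receptors are membrane proteins of the innate immune system that bind molecules common in microbes, and some also bind molecules released from damaged cells. Tlr1, Tlr2, Tlr4 and Tlr6 act at the cell surface, where Tlr2 pairs with Tlr1 or Tlr6 to bind lipoproteins and Tlr4 binds lipopolysaccharide. Tlr3, Tlr7, Tlr8, Tlr9 and Tlr13 act in endosomes and bind nucleic acids: Tlr3 binds double-stranded RNA, Tlr7 and Tlr8 single-stranded RNA and its breakdown products, Tlr9 DNA with unmethylated CpG, and Tlr13, which people lack, bacterial ribosomal RNA. All of them except Tlr3 signal through MyD88, which recruits IRAK kinases and leads to activation of NF-kB and interferon regulatory factors. Tlr3 signals through the adaptor encoded by Ticam1, and Tlr4 can use both. In tumours these receptors are known from macrophages, monocytes and dendritic cells, and some are also found on stromal and tumour cells.

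Library make-up differed strongly between the groups and bears on each value below. Total reads were 15585622 to 21298142 in the isotype control libraries, 3593110 to 3937727 with anti-B7-H3, 8099713 to 10527704 with anti-PD1 and 4409772 to 5014931 in the combination. Transcripts of 12 satellite-like genes took 92.5% ± 1.93 (SD, n = 3) of the isotype control reads, 0.145% ± 0.068 with anti-B7-H3, 72.0% ± 2.99 with anti-PD1 and 31.4% ± 2.22 in the combination. Reads at 1189 olfactory receptor (Olfr) genes, which tumours are not thought to transcribe, served as the background: 6.86 ± 0.31 reads per kb of coding sequence in the isotype control libraries, 0.0559 ± 0.00516 with anti-B7-H3, 5.2 ± 0.25 with anti-PD1 and 0.648 ± 0.0419 in the combination. Multiplied by a gene's coding length, that rate gives the reads expected at the gene without transcription of its own. Levels are given as CPM, the depth-scaled read count, computed on an effective library size and not on total reads. The effective size is the total scaled by the TMM method, which is meant to remove the effect of a few very abundant transcripts. It was below the total reads in each isotype control library (2499694 to 3234699) and each anti-PD1 library (7591257 to 8439049). It was above the total reads in each anti-B7-H3 library (12098671 to 13354209) and each combination library (10128029 to 12191200). The CPM values below, and the fold changes based on TMM, rest on these sizes.

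The position and sequence of the genes, from the GENCODE M21 annotation of GRCm38, set what the reads can separate. Tlr1 (chr5:64924679-64933563) and Tlr6 (chr5:64952031-64960097) are neighbours on the minus strand of chromosome 5, 18467 bases apart, and each has its whole coding sequence in 1 exon. They were the 1 pair of 45 among the 10 genes that shared any 31-base word of coding sequence: 603 words, 25.6% of those of Tlr1 and 25.2% of those of Tlr6. The longest identical stretch, 229 bases, is printed because reads that fall within it cannot be assigned to either gene by sequence; it spans coding bases 1468 to 1696 of Tlr1 (chr5:64925537-64925765) and 1507 to 1735 of Tlr6 (chr5:64953828-64954056), and since no base differs, none is in capitals.
Tlr1 and Tlr6: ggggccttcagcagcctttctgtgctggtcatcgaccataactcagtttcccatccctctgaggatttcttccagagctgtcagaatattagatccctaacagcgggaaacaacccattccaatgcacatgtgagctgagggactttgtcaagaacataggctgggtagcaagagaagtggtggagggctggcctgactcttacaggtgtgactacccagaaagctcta
The split of reads between Tlr1 and Tlr6 is therefore an estimate, while the other 8 genes share no such word with any of the 10. Tlr7 (chrX:167304929-167330558) and Tlr8 (chrX:167242696-167264329) also lie side by side, 40599 bases apart on the minus strand of the X chromosome, which also carries Tlr13 (chrX:106143204-106160493). Tlr2 lies at chr3:83836272-83841767, Tlr3 at chr8:45395665-45411080, Tlr4 at chr4:66827584-66930284 and Tlr9 at chr9:106222598-106226883. Myd88 (chr9:119335934-119341411, minus strand) has 5 coding exons, and an exon of Acaa1a overlaps one of them on the opposite strand. No source used here gives the strand setting behind the read assignment, so reads of those 2 genes at the overlap cannot be told apart.

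RefSeq promoter windows (GRCm38.p6, 250 bases before to 50 after a start site) matched 8 of the 10 genes in 10 windows; Tlr4 and Tlr7 had no entry. They were searched on both strands for GAGGAAG (a core bound by PU.1, a factor of myeloid cells), GAAANNGAA (a core of interferon response elements) and GGGNNTTTC (part of the NF-kB site), 3 motifs that do not contain each other. The PU.1 core was present in 3 of the 10 windows (1 each of Tlr1, Tlr9 and Tlr13) and in 13.6% of all 32851 windows. The interferon response core was present in 3 of the 10 windows (1 each of Tlr6, Tlr8 and Myd88) and in 8.56% of all windows. The NF-kB part was present in 1 of the 10 (Tlr3) and in 4.36% of all windows. The 250 bases before the start sites of Tlr8, Tlr13 and Myd88 are printed as examples of genes with a match that were lower in the combination than with anti-B7-H3. Tlr1, Tlr6 and Tlr9 also held a match and were lower, Tlr2 was lower with no match, and Tlr3 held a match and was not called. A link between matches and levels was not tested. In the printed windows the match is to the interferon response core in Tlr8 and Myd88 and to the PU.1 core in Tlr13. Capitals mark the match, which lies 67 bases before the start in Tlr8 (chrX:167264330-167264579, minus strand), 83 in Tlr13 (chrX:106143025-106143274, plus strand) and 40 in Myd88 (chr9:119340019-119340268, minus strand).
Tlr8: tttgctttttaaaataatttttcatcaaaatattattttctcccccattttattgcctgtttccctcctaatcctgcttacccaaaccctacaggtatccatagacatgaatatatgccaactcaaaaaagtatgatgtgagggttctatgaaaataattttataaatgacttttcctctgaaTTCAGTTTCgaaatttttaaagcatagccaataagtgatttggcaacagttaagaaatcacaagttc
Tlr13: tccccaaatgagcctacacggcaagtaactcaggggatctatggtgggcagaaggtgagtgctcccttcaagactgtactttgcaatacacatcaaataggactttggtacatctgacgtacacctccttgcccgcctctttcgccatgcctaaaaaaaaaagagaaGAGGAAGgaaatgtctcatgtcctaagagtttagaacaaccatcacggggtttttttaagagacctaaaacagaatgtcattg
Myd88: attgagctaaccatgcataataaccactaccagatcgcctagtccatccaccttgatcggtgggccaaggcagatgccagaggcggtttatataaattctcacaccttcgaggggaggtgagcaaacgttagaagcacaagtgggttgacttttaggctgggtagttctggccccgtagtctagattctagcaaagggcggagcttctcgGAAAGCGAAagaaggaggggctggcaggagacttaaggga
A match is a description of letters; no binding was measured.

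Across the 4 groups, reads of the receptors were most numerous with anti-B7-H3 and stood at the background in the isotype control libraries. The 9 receptors together had 4833 reads in the 3 anti-B7-H3 libraries against 4.15 expected from background, which is 0.0858% of the reads. In the combination they had 2681 reads against 48.1 expected (1.79%), with anti-PD1 1041 against 385 (37.0%), and in the isotype control 483 against 509 (105%). The exact Poisson 95% interval of a gene's reads, which covers counting error only, lay above its expected background for 10 of the 10 genes with anti-B7-H3, 10 in the combination, 9 with anti-PD1 and 2 (Tlr3 and Tlr4) in the isotype control. Levels in the isotype control libraries, and in part those with anti-PD1, are therefore limits set by background for most of these genes. The plot of reads by library sets each count beside its own background.

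**Figure D1:**
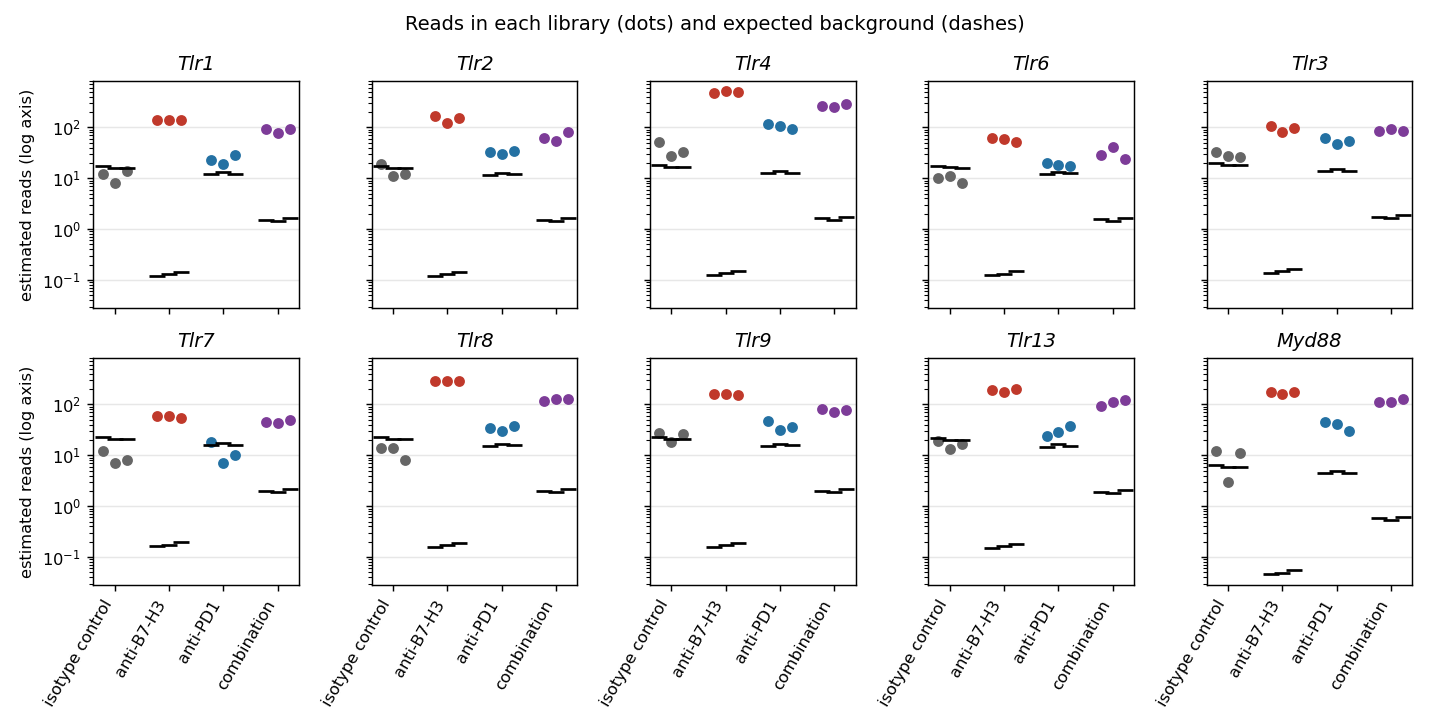
Estimated reads of each gene in each library (dots, log axis, 3 libraries per group) and the reads expected there from the Olfr background (black dashes). In the anti-B7-H3 and combination libraries every dot is above its dash, whereas in the isotype control libraries the dots of Tlr1, Tlr6, Tlr7, Tlr8 and Tlr13 lie below theirs.

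Among the surface receptors, Tlr4 had the most reads. The anti-B7-H3 libraries held 462, 508 and 486 Tlr4 reads, the combination libraries 259, 255 and 293, the anti-PD1 libraries 117, 106 and 91, and the isotype control libraries 51, 27 and 32, where 51.6 of the 110 summed reads were expected from background. The ranges of Tlr4 CPM did not overlap between anti-B7-H3, combination and anti-PD1, at 38.4 ± 3.71, 24.4 ± 0.676 and 13.1 ± 0.965 CPM (SD, n = 3), while anti-PD1 and isotype control (12.8 ± 2.61) overlapped. Tlr2, the shared partner of the lipoprotein receptors, had 167, 124 and 149 reads with anti-B7-H3, 63, 54 and 80 in the combination, 32, 30 and 35 with anti-PD1 and 19, 11 and 12 in the isotype control. Its partner Tlr1 had 142, 137 and 137 reads with anti-B7-H3, 93, 76 and 92 in the combination, 23, 19 and 28 with anti-PD1 and 12, 8 and 14 in the isotype control. In the isotype control the summed reads of both were under the background expectation (42 against 48.5 for Tlr2, 34 against 49.2 for Tlr1). Tlr6, the other partner, had fewer reads than Tlr2 and Tlr1 in every library except isotype control library 2. It had 61, 59 and 52 reads with anti-B7-H3, 29, 41 and 24 in the combination, 20, 18 and 17 with anti-PD1 and 10, 11 and 8 in the isotype control.

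Of the endosomal receptors, Tlr8 had the most reads with anti-B7-H3, at 285, 288 and 288 in the 3 libraries. The combination libraries held 115, 128 and 125 Tlr8 reads, the anti-PD1 libraries 35, 30 and 37 and the isotype control libraries 14, 14 and 8. Tlr13 was next, with 190, 178 and 198 reads with anti-B7-H3, 92, 113 and 120 in the combination, 24, 29 and 37 with anti-PD1 and 19, 13 and 17 in the isotype control. By reads, both genes had the same order of groups. In CPM, anti-PD1 was not above the isotype control, at 4.26 ± 0.562 against 4.3 ± 1.31 for Tlr8 and 3.79 ± 1.02 against 5.8 ± 0.561 for Tlr13. In the isotype control both were under the expected background (36 reads against 63.8 for Tlr8, 49 against 61.3 for Tlr13). The CpG DNA receptor gene Tlr9 had 157, 157 and 150 reads with anti-B7-H3, 82, 72 and 79 in the combination, 47, 32 and 36 with anti-PD1 and 27, 18 and 26 in the isotype control. Tlr7 had the fewest summed reads of the endosomal receptors in each group. It had 60, 59 and 54 reads with anti-B7-H3, 45, 43 and 50 in the combination, 18, 7 and 10 with anti-PD1 and 12, 7 and 8 in the isotype control. With anti-PD1 the 35 summed Tlr7 reads (interval 24.4 to 48.7) were under the 49.2 expected, so Tlr7 was not detectable above background there. Background is an average over Olfr genes, and 80.4% of them had as many or more reads per kb than Tlr7 in the isotype control.

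Tlr3 had a different pattern. Its libraries held 106, 80 and 99 reads with anti-B7-H3, 84, 91 and 83 in the combination, 61, 48 and 54 with anti-PD1 and 32, 27 and 26 in the isotype control, which is 7.48 ± 0.752, 7.86 ± 1.09, 6.79 ± 0.662 and 10.1 ± 0.604 CPM. The first 3 groups overlapped, and the isotype control lay above them on the CPM scale although 65.8% of its Tlr3 reads were expected from background. With background subtracted, the mean level was 2.75 ± 0.279 CPM per kb with anti-B7-H3, 2.83 ± 0.4 in the combination, 1.85 ± 0.281 with anti-PD1 and 1.26 ± 0.164 in the isotype control. The adaptor gene Myd88 had 178, 159 and 171 reads with anti-B7-H3, 111, 112 and 126 in the combination, 44, 42 and 30 with anti-PD1 and 12, 3 and 11 in the isotype control. The 26 Myd88 reads of the isotype control (interval 17.0 to 38.1) could not be told from the 18.3 expected. A second, short Myd88 transcript of 327 coding bases was assigned 12.2% ± 2.82 of Myd88 reads with anti-B7-H3, 11.8% ± 2.19 in the combination and 4.19% ± 3.63 with anti-PD1.

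Compared per kb of coding sequence with background subtracted, Tlr4 and Myd88 were the highest of the 10 in the anti-B7-H3, anti-PD1 and combination libraries. With anti-B7-H3 the order was Tlr4 (15.3 ± 1.48 CPM per kb), Myd88 (15.0 ± 0.28), Tlr8 (7.33 ± 0.403), Tlr13 (5.0 ± 0.264), Tlr2 (4.9 ± 0.499), Tlr1 (4.57 ± 0.142), Tlr9 (3.94 ± 0.209), Tlr3 (2.75 ± 0.279), Tlr6 (1.88 ± 0.156) and Tlr7 (1.44 ± 0.0934). Library ranges overlapped between Tlr4 and Myd88, between Tlr13 and Tlr2 and between Tlr2 and Tlr1, and between no other neighbours in that order. In the combination Myd88 (11.8 ± 0.484) and Tlr4 (9.67 ± 0.266) led, and Tlr8, Tlr13, Tlr1, Tlr3, Tlr2 and Tlr9 followed between 3.55 ± 0.414 and 2.22 ± 0.179, each overlapping its neighbour. From the highest level down, Tlr3 had rank 8 with anti-B7-H3, rank 6 in the combination and rank 3 with anti-PD1. With anti-PD1, Myd88 (4.75 ± 0.859) and Tlr4 (4.55 ± 0.421) overlapped, and Tlr2, Tlr9, Tlr8, Tlr13, Tlr1 and Tlr6 lay between 1.07 ± 0.19 and 0.298 ± 0.0924. In the isotype control Tlr4 (2.65 ± 1.26) and Tlr3 (1.26 ± 0.164) led, Myd88 and Tlr9 were within 1 SD of 0, and the other 6 had negative means.

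**Figure D2:**
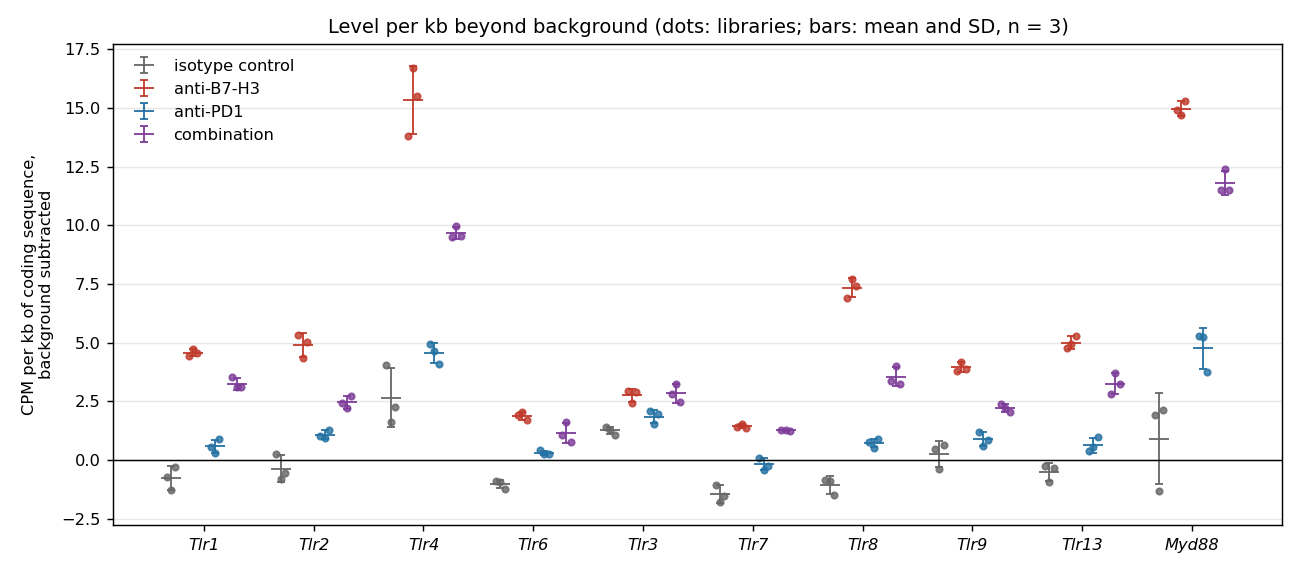
Level of each gene per kb of coding sequence with the Olfr background subtracted (vertical axis, CPM per kb), for the 4 groups; dots are libraries, bars the mean and SD of 3. Tlr4 and Myd88 reach 15.3 and 15.0 with anti-B7-H3, and 6 of the 10 isotype control means lie below 0.

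The comparison least affected by background set the combination against anti-B7-H3 alone, which asks what anti-PD1 added to anti-B7-H3. In edgeR's quasi-likelihood test, with Benjamini-Hochberg adjustment over all 13478 genes, 8 of the 10 genes were lower in the combination and none was higher, where 19.1% of all genes tested were called lower and 19.8% higher. The median log2 fold change of the 10 genes was -0.63, against 0.01 over all genes tested. Tlr8 was at 0.491 times its anti-B7-H3 level (log2 -1.03, SE 0.104, adjusted p = 2.51e-13) and Tlr2 at 0.514 times (log2 -0.96, SE 0.141, adjusted p = 3.76e-08). Tlr9 fell by 0.79 on the log2 scale (SE 0.131, adjusted p = 7.32e-07), Tlr6 by 0.66 (SE 0.217, adjusted p = 0.0108), Tlr4 by 0.65 (SE 0.081, adjusted p = 2.9e-10), Tlr13 by 0.60 (SE 0.12, adjusted p = 3.08e-05) and Tlr1 by 0.47 (SE 0.135, adjusted p = 0.00314). Myd88 fell by 0.34 (SE 0.121, adjusted p = 0.019), a smaller estimate than that of any receptor called. For Tlr3 the log2 fold change was 0.06 (95% interval -0.22 to 0.34, adjusted p = 0.782) and for Tlr7 -0.13 (-0.51 to 0.26, adjusted p = 0.651), so neither passed the test. The library ranges of CPM did not overlap for 9 of the 10 genes, each lower in the combination; Tlr3 was the exception. Of all genes tested, 25.0% had all combination libraries below all anti-B7-H3 libraries. The Tlr6 and Myd88 calls were lost with background subtracted (adjusted p = 0.0645 and 0.0925), that of Tlr6 also without anti-B7-H3 library 2 or combination library 3 (0.059 and 0.156), and that of Myd88 without any one of the 3 anti-B7-H3 libraries or combination libraries 1 or 3 (0.0501 to 0.0842). When a call also required a 2-fold change, 1 gene (Tlr8) kept it.

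Markers of several cell types moved in the same comparison. Of 10 macrophage markers 9 were lower in the combination and 1, Mertk, was not called, with a median log2 fold change of -1.02; their summed level beyond background went from 2600 ± 12.7 to 1290 ± 2.87 CPM (SD, n = 3), with library ranges of 31392 to 34604 and 13041 to 15748 reads. Of 5 monocyte markers 5 were lower (median -1.65), led by Chil3, at -3.0 (SE 0.0478, adjusted p = 5.32e-58), and their sum went from 690 ± 11.9 to 101 ± 1.26 CPM. Neutrophil markers (3 of 3 tested lower, sum 33.2 ± 1.75 to 12.1 ± 0.682 CPM), T cell markers (4 of 6 lower, sum 19.7 ± 1.35 to 9.23 ± 1.11), dendritic cell markers (3 of 6 tested lower, 146 ± 4.46 to 75.6 ± 3.82) and fibroblast markers (5 of 5 lower, 3580 ± 25.1 to 2280 ± 22.7) were lower as well. The 10 genes described here summed to 141 ± 4.78 CPM with anti-B7-H3 and 90.3 ± 4.85 in the combination. B cell markers were lower in 3 of 3 tested (median -1.64), with a sum of 5.26 ± 0.37 and 1.07 ± 0.967 CPM. None of 3 plasmacytoid dendritic cell markers tested was called, and of 4 endothelial markers 1 was lower and 3 were not called (median -0.24). Skeletal muscle markers went the other way (4 of 4 higher, 0.15 ± 0.194 to 80.4 ± 2.44). Melanoma markers summed to 26.7 ± 1.78 and 44.8 ± 1.15 CPM, from 315 to 361 and 472 to 541 reads per library. Of 4 tested, 2 were higher and 1 was lower, and Dct had 0 reads in all anti-B7-H3 libraries. The tumour type is taken from the labels and was not tested here. Keratinocyte markers were higher in 2 of 2 tested (median 3.0), and Krt5, Krt14 and Krt1 had 0 reads with anti-B7-H3. The part of these cell types in the receptor values was not tested; in bulk tumour RNA, fewer cells of a type and less RNA per cell cannot be told apart.

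**Figure D3:**
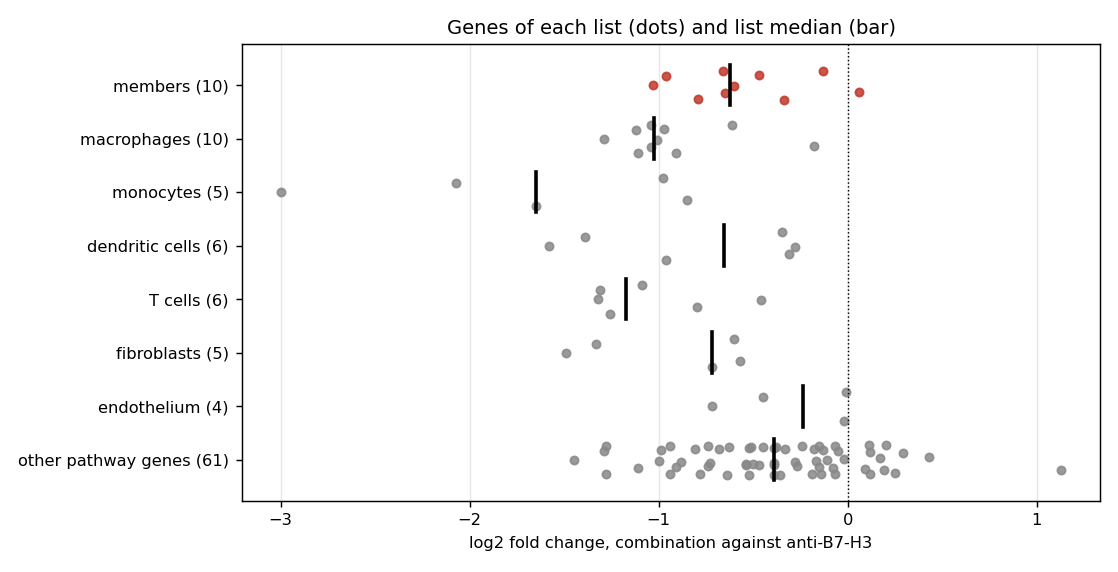
Log2 fold change of the combination against anti-B7-H3 (horizontal axis) for the 10 genes (red dots) and for marker and pathway lists (grey dots); bars are list medians and the number of tested genes is in brackets. The median of the 10 genes is -0.63, that of the macrophage markers -1.02 and that of the monocyte markers -1.65.

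The rest of the pathway was read from 9 lists of 68 genes, of which 61 were tested: 30 were lower in the combination than with anti-B7-H3, 3 were higher, and their median log2 fold change was -0.39. Co-receptors were lower in 5 of 6 cases, among them Ly86, which encodes MD-1 (-1.11, SE 0.112, adjusted p = 2.61e-13), and Cd36, a scavenger receptor that assists Tlr2 (-0.94, SE 0.154, adjusted p = 5.81e-07). Of 5 trafficking genes, Unc93b1, whose product carries nucleic-acid-sensing receptors to endosomes, was lower (-0.78, SE 0.0509, adjusted p = 7.67e-22), as was Cd300lf (-0.91), while Hsp90b1, the chaperone gp96 that folds the receptors, was slightly higher (0.20, SE 0.0465, adjusted p = 2.3e-04). Adaptor genes were lower in 3 of 4 tested, including Ticam1 (-0.39, adjusted p = 0.0367), which serves Tlr3, Ticam2 (-0.74) and Pik3ap1 (-0.81). Kinases and ligases were lower in 6 of 14, led by Irak4 (-0.73), the first kinase that MyD88 recruits, and Ikbke (-0.68). Among 8 transcription factors 5 were lower, led by Irf5 (-0.99, SE 0.0905, adjusted p = 3.92e-15) and Relb (-0.74), and Irf7 was higher (0.43, SE 0.157, adjusted p = 0.0214). Negative regulators were lower in 5 of 8, with Irak3, an inhibitory IRAK of myeloid cells, at -1.29 and Socs1 at -1.28. Of 14 target cytokines and enzymes 8 were tested and 2 were lower, Nos2 (-1.28, SE 0.115, adjusted p = 2.6e-15) and Il1b (-0.88, SE 0.148, adjusted p = 1.07e-06); Ifnb1 had 0 reads in the anti-B7-H3 libraries. Among the other receptors that use MyD88, Il1rl1 (-1.45) and Il1r1 (-0.47) were lower, Il1rap was higher (1.13, SE 0.0748, adjusted p = 1.69e-21), and neither subunit of the IL-18 receptor was called. The remaining Toll-like receptor genes, Tlr5, Tlr11 and Tlr12, were not called (-0.63, -0.38 and -0.28); Tlr12, with 259 reads with anti-B7-H3 and 186 in the combination, had the most reads of them, and Tlr11 had 33 and 22.

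Anti-B7-H3 against anti-PD1, which shares the anti-B7-H3 libraries with the comparison above, gave 9 of the 10 genes higher with anti-B7-H3 and none lower, where 30.4% of all genes tested were called higher and 31.6% lower. The median log2 fold change was 1.53, against -0.01 over all genes tested. Tlr8 was 5.32 times as high (log2 2.41, SE 0.138, adjusted p = 2.15e-25), Tlr13 3.96 times (log2 1.98, SE 0.159, adjusted p = 3.68e-18) and Tlr1 3.74 times (log2 1.90, SE 0.178, adjusted p = 2.95e-15). Tlr7 (1.63), Tlr4 (1.55), Tlr2 (1.51), Myd88 (1.47), Tlr9 (1.35) and Tlr6 (0.98) had smaller differences, and Tlr3 was not called (0.14, 95% interval -0.17 to 0.45, adjusted p = 0.443). Macrophage markers were higher in 10 of 10 (median 2.46), monocyte markers in 5 of 5 (median 3.11) and T cell markers in 6 of 6 (median 2.67). Fibroblast markers were higher in 5 of 5 (median 0.73) and dendritic cell markers in 4 of 6 tested, with 1 lower (median 1.25). Skeletal muscle markers were lower in 4 of 4, keratinocyte markers in 2 of 2 tested and melanoma markers in 3 of 4 tested. The part of these cell types in the receptor values was not tested. Of Tlr5, Tlr11 and Tlr12, Tlr12 was higher (1.79) and the others were not called. In the pathway lists 43 of 61 genes were higher and 4 lower, with a median of 0.85. Unc93b1 (2.29), Ly86 (2.63), Nos2 (2.60) and Il1b (2.14) were among the higher genes, and Il1rap (-1.25), Sigirr, an inhibitory receptor (-0.74), Tab3 (-0.52) and Chuk (-0.22) were the lower ones. With background subtracted the same 9 genes were called and the values of Tlr6 and Tlr7 moved most, to 2.41 and 5.32. The Tlr7 value sets a gene against libraries at background and is no measure of size. Tlr8 (3.08), Tlr13 (2.76), Tlr1 (2.72), Tlr2 (1.95) and Tlr9 (1.88) rose too, while Tlr4 and Myd88 fell slightly. With anti-PD1, 47.4% of the Tlr8 reads, 51.6% of those of Tlr13 and 53.2% of those of Tlr1 were expected from background. The sizes given for these genes therefore depend on the treatment of background.

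**Figure D4:**
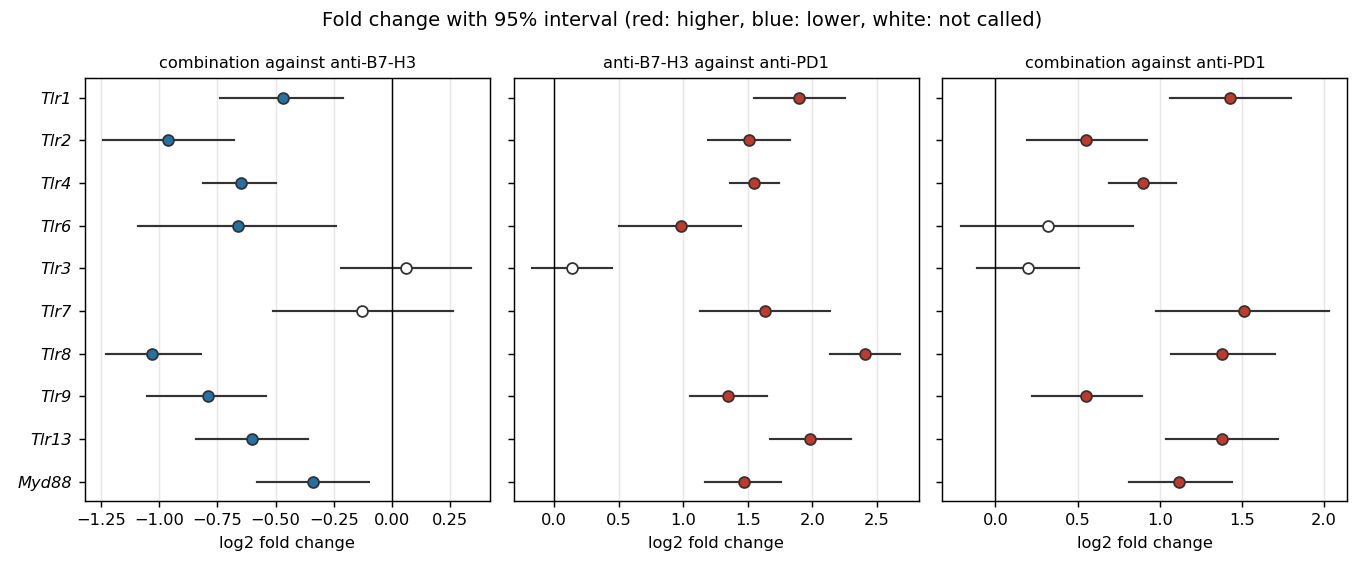
Log2 fold change with 95% interval of each gene in the 3 comparisons that leave out the isotype control; red dots were called higher, blue lower and white not called. Tlr3 lies near 0 in each panel, at 0.06, 0.14 and 0.20, and Tlr8 is farthest from 0 in the first panel, at -1.03, and the second, at 2.41.

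The combination against anti-PD1 asks what anti-B7-H3 added to anti-PD1, and it shares libraries with both comparisons above. Here 8 of the 10 genes were higher in the combination and none was lower, where 23.1% of all genes tested were called higher and 23.4% lower; the median log2 fold change was 1.01, against 0.00 over all genes. Tlr7 (1.51, SE 0.268, adjusted p = 2.37e-06), Tlr1 (1.43, SE 0.19, adjusted p = 2.03e-09), Tlr8 (1.38, SE 0.158, adjusted p = 1.65e-11) and Tlr13 (1.38, SE 0.173, adjusted p = 2.89e-10) had the larger differences. Myd88 (1.12), Tlr4 (0.90), Tlr2 (0.55) and Tlr9 (0.55) were also higher. Tlr3 (0.20, 95% interval -0.11 to 0.51) and Tlr6 (0.32, -0.21 to 0.84) were not called. Macrophage markers were again higher in 10 of 10 (median 1.41) and monocyte markers in 5 of 5 (median 1.46). T cell markers were higher in 5 of 6 (median 1.80) and skeletal muscle markers in 4 of 4 (median 2.33). Fibroblast markers were higher in 1 of 5 (median 0.01), and melanoma markers were lower in 3 of 4 tested. In the pathway lists 28 of 61 genes were higher and 1, Tlr11, lower. The Tlr2 call was lost without anti-PD1 library 1 or 2 (adjusted p = 0.0544 and 0.055) and the Tlr9 call without anti-PD1 library 2 (0.0628). With background subtracted, Tlr6 was called as well (1.70, adjusted p = 0.00261) and Tlr7 stood at 5.15. Tlr1 (2.26), Tlr13 (2.16), Tlr8 (2.05), Tlr9 (1.07) and Tlr2 (0.98) rose too, while Myd88 (1.08) and Tlr4 (0.86) fell slightly.

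Comparisons with the isotype control set each gene against libraries at or near background, so their values change with its treatment. Anti-B7-H3 gave 7 of the 10 genes higher and 1 lower (30.8% and 33.3% of all genes tested; median log2 fold change 1.28, against -0.04): Tlr8 (2.40, SE 0.197, adjusted p = 9.18e-18), Myd88 (2.11, SE 0.241, adjusted p = 5.82e-12), Tlr4 (1.56), Tlr1 (1.44), Tlr13 (1.36), Tlr2 (1.21) and Tlr9 (0.54) were higher and Tlr3 was lower (-0.43, SE 0.192, adjusted p = 0.0454). Tlr6 (0.39) and Tlr7 (0.51) were not called. With background subtracted 9 genes were higher and Tlr3 stood at 0.33 (adjusted p = 0.365), so the direction for Tlr3 depends on background; its call was also lost without any one of the isotype control, anti-B7-H3 or combination libraries. The combination gave 5 higher and none lower (27.8% and 29.5%; median 0.57, against -0.01), namely Myd88 (1.77), Tlr8 (1.38), Tlr1 (0.96), Tlr4 (0.90) and Tlr13 (0.75), and 9 higher with background subtracted. Anti-PD1 gave none higher and 3 lower (17.5% and 20.9%; median -0.52, against -0.04), namely Tlr7 (-1.13, SE 0.378, adjusted p = 0.0137), Tlr9 (-0.81, SE 0.225, adjusted p = 0.00265) and Tlr3 (-0.57, SE 0.204, adjusted p = 0.0216). With background subtracted none of those 3 was called and Tlr1, Tlr2, Tlr8 and Tlr13 were higher, so no direction is read for anti-PD1 against the isotype control. Outside the 10 genes, Tlr12 was higher than in the isotype control with anti-B7-H3 (1.09) and in the combination (0.81). Tlr11 (-2.70 and -3.07) and Tlr5 (-1.04 and -1.66) were lower in both. Isotype control reads of Tlr12, Tlr11 and Tlr5 were under the expected background (27 against 56.0, 48 against 57.6 and 43 against 54.0). Macrophage markers were higher than in the isotype control in 10 of 10 cases with anti-B7-H3 (median 2.90), in 10 of 10 in the combination (1.96) and in 5 of 10 with anti-PD1, where 1 was lower (0.38). With anti-B7-H3, monocyte (5 of 5, median 4.13), fibroblast (5 of 5, 1.74) and T cell markers (4 of 6, 1.02) were higher as well. Skeletal muscle (4 of 4) and melanoma markers (3 of 4 tested) were lower there.

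The interaction of the antibodies is the difference between what anti-PD1 changed on top of anti-B7-H3 and what it changed against the isotype control, on the log2 scale. It was called for 4 of the 10 genes, 3 below 0 and 1 above (median -0.04, against 0.04 over all genes). Of all genes tested 17.3% were called below 0, 19.1% above and 36.4% in either direction, so the count of 4 is close to the share over all genes. The genes called were Tlr8 (-1.02, SE 0.289, adjusted p = 0.00345), Myd88 (-0.99, SE 0.321, adjusted p = 0.0115), Tlr4 (-0.66, SE 0.18, adjusted p = 0.00238) and Tlr3 (0.63, SE 0.249, adjusted p = 0.0397). Since 1 of its 4 groups is the isotype control, the limits of background hold here as well: with background subtracted 8 genes were called below 0, Tlr7 was below 0 with no call (-3.03, adjusted p = 0.545) and Tlr3 stood at 0.06 (adjusted p = 0.942). The Tlr3 call was also lost with DESeq2 (adjusted p = 0.0545), with no filter on low counts (0.158), without satellite-like genes (0.104) and in 8 of the 12 fits that left out 1 library. The Myd88 call was lost without isotype control library 2 (-0.64, adjusted p = 0.127). Macrophage markers were called below 0 in 9 of 10 (median -1.41), monocyte markers in 4 of 5 (median -2.02) and fibroblast markers in 5 of 5 (median -1.39). None of 6 T cell markers was called, and skeletal muscle markers were above 0 in 4 of 4.

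For the 3 genes with the most reads, the tested genes with the most similar profile over the 12 libraries were listed among 5508 genes with a mean of at least 10 CPM; likeness is the root mean square difference of log2 CPM after each profile is centred on its own mean. Nearest to Tlr4 were Dab2 (0.133), an endocytic adaptor, Arrb2 (0.146), an arrestin, and Mfsd1 (0.148), a lysosomal transporter. Tlr8 was nearest to Ncf1 (0.16), a subunit of the phagocyte NADPH oxidase, Tbxas1 (0.176), thromboxane synthase, and Hfe (0.186), an iron regulator. Tlr13 was nearest to Arhgap29 (0.213), Abca9 (0.216) and Sh3bp4 (0.237). The centred group means of Tlr8 were -0.94, 1.44, -0.92 and 0.43 in isotype control, anti-B7-H3, anti-PD1 and combination, beside -0.93, 1.45, -0.77 and 0.25 for Ncf1. Background was not subtracted from these profiles. In the isotype control Tlr8 and Tlr13 had 36 and 49 reads against 63.8 and 61.3 expected. With anti-PD1 they had 102 and 90 against 48.3 and 46.4, so their profiles in both groups are limited by background.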

How the data were processed

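RNA was sequenced from 12 tumour libraries in 4 antibody groups of 3. The authors deposited, per the file headers, an estimated count of reads (NumReads), a TPM value and 2 lengths for each of 58083 transcripts. The deposited TPM values were not tested, since satellite-like transcripts take different shares of the groups. GRCm38 and FastQC 0.11.8 are named in the submitters' processing notes; the program that assigned reads and its strand setting are not given in the sources used here. Of the lengths 87.292% are multiples of 3, so they are coding lengths. Estimated counts were summed per gene by transcript name without its version, through GENCODE M21 (1.05% of transcripts unmatched), and rounded. edgeR 4.0.16 in R 4.3.3 fitted all 12 libraries (TMM, filterByExpr with a minimum count of 10, robust quasi-likelihood fit, 1 mean per group, no block), and an adjusted p under 0.05 was called. Across the comparisons all 10 genes are named; from each pathway list up to 2 called genes per direction with a mean of at least 1 CPM, by size, plus a few named after their values were seen (Ticam1, Il1r1, Tlr5, Tlr11, Tlr12, Mertk, Chil3 and genes at 0 reads). The script was tested on simulated data. The genes, lists and tests were chosen with earlier results of these data known. Alternatives were DESeq2 1.42.0 and its size factors, other filters and offsets, subtracted background, a 2-fold requirement and leaving out each library.

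Libraries with the same replicate number did not deviate together (18 pairs, correlations -0.105 to 0.194). Same-group libraries differed by more than counting noise (median chi-square 0.547 to 0.986 over genes, against 0.455 from noise), so none was treated as a repeat. This difference cannot show whether they came from separate tumours, since libraries prepared separately from 1 sample may differ as well. Depth sets the precision, and total reads (3593110 to 21298142 per library) are no measure of it here. Reads outside the satellite-like genes were 1340782 to 1512937 per library in the isotype control and 3570258 to 3918163 with anti-B7-H3. They were 2530099 to 2793362 with anti-PD1 and 2902813 to 3493133 in the combination. Background also limits the isotype control and anti-PD1 groups.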

Additional observations from a re-analysis of the deposited data

Results flagged for a closer look

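The interaction term of edgeR's fit, which compares the effect of adding anti-PD1 with and without anti-B7-H3, was called for 4 of the 10 genes. This is close to the share over all genes tested, of which 36.4% were called (17.3% below 0 and 19.1% above), and is not a result particular to these genes. The term was -1.02 for Tlr8 (adjusted p = 0.00345), -0.99 for Myd88 (adjusted p = 0.0115) and -0.66 for Tlr4 (adjusted p = 0.00238): in each, the combination was lower than anti-B7-H3, while anti-PD1 against the isotype control was at -0.01, 0.65 and 0.01 with no call. With background subtracted the terms stayed below 0, at -8.44, -1.48 and -0.83, the first against isotype control libraries with almost no reads beyond background, which makes its size uninterpretable. Without isotype control library 2, the Myd88 term was -0.64 (adjusted p = 0.127). For Tlr3 the term was 0.63 (adjusted p = 0.0397), and it was not called with DESeq2 (adjusted p = 0.0545), with background subtracted (0.06, adjusted p = 0.942), or in 8 of the 12 fits that left out 1 library.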

How the results depend on the processing

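The results without the isotype control depended least on the processing, and those against it changed with the treatment of background. Of 1516 log2 fold changes set beside the main fit, 1358 kept direction and side of the threshold. Another 65 changed sign, with or without a change of call. Of those that kept their sign, 68 lost their call and 25 gained one. The 2-fold requirement reuses the values of the main fit, so directions under it were kept by construction.

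Against the isotype control, the 1 gene lower with anti-B7-H3 (Tlr3) became 0 with no filter on low counts, with the replicate block, with the effective-length offset, with satellite-like and mitochondrially encoded genes left out, with background subtracted and with a 2-fold requirement, and 0 to 1 on leaving out 1 library. Higher with anti-PD1 were 1 with no filter, 1 without satellite-like genes and 4 with background subtracted, in place of 0; lower were 0 with background subtracted, 1 with a 2-fold requirement and 1 to 4 on leaving out 1 library, in place of 3. In the combination, 9 were higher with background subtracted and 2 with a 2-fold requirement, in place of 5, and 1 (Tlr3, -0.56) was lower among genes at 5 times background or more. A 2-fold requirement left 1 gene lower in the combination than with anti-B7-H3 and 5 higher than with anti-PD1. In the interaction the 1 gene above 0 became 0 with DESeq2's Wald test, no filter, satellite-like genes left out, background subtracted and a 2-fold requirement, and 0 to 2 on leaving out 1 library; the 3 below 0 became 8 with background subtracted and 1 with a 2-fold requirement. Fewer genes called under a 2-fold requirement follow from its construction; otherwise the cause was not tested.

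Signs changed with background subtracted for Tlr3 (0.33 with anti-B7-H3 and 0.38 in the combination against the isotype control), for anti-PD1 against the isotype control (Tlr1 6.72, Tlr2 2.81, Tlr6 5.77, Tlr7 2.87, Tlr8 7.42, Tlr9 0.69, Tlr13 7.13), for the combination against it (Tlr6 7.47, Tlr9 1.76) and for the interaction (Tlr7 -3.03, Tlr9 -1.49, Tlr13 -7.73). Values above 5 set genes against libraries at or near 0 after subtraction and are no measure of size. The other sign changes were of values near 0 with no call. For anti-PD1 against the isotype control, Tlr4 was -0.01 with DESeq2 size factors, -0.01 with DESeq2's test, 0.00 with the effective-length offset, -0.11 among genes at 5 times background and -0.11 to 0.19 on leaving out 1 library; Tlr8 was 0.15 with no filter, 0.05 with only the groups compared, 0.17 without satellite-like genes and -0.21 to 0.19 on leaving out 1 library. For the combination against the isotype control, Tlr6 was 0.03 and Tlr9 0.04 with no filter, Tlr9 0.01 without satellite-like genes, and Tlr6 -0.48 to 0.02 on leaving out 1 library. For the combination against anti-B7-H3, Tlr3 was -0.01 with the effective-length offset and -0.03 to 0.16 on leaving out 1 library. In the interaction, Tlr9 was -0.16 with no filter, -0.04 with the offset and -0.12 without satellite-like genes, Tlr13 -0.15, -0.03 and -0.11, and Tlr1 0.11 among genes at 5 times background; leaving out 1 library gave -0.21 to 0.20 for Tlr1, -0.42 to 0.12 for Tlr6, -0.08 to 0.17 for Tlr9 and -0.13 to 0.26 for Tlr13.

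With the replicate number as a block, Tlr3 with anti-B7-H3 against the isotype control was -0.43 (adjusted p = 0.0525); no other call of the 10 genes changed, and 5 of 12 libraries correlated best with their own number. With no filter the median log2 fold change over all genes moved from -0.04 to -0.78 for anti-B7-H3 against the isotype control. Tlr6 and Tlr7 could not be fitted among genes at 5 times background. Reads beyond background moved by more than 1 SD in 11 of 40 group means when the median Olfr gene set the rate. All-gene counts also moved: 4022 higher and 2839 lower with background subtracted for anti-B7-H3 against the isotype control (58.6% higher, against 48.0%).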
